A study of Mus musculus with 20 samples.

Results

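Serine, glycine and methionine are broken down and interconverted in the liver by a small set of enzymes, and 10 of their genes are described here: Sds, Gldc, Gcsh, Shmt1, Mat1a, Gnmt, Cbs, Cth, Bhmt and Pemt. They were picked by gene symbol for their place in this pathway. All 10 were among the 13319 gene symbols counted, and all 10 were among the 12907 genes that passed a filter on low counts. A further 72 genes of the same pathways, in 10 lists, were counted and tested beside them.

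Liver RNA came from individual male mice on western diet that were treated daily for 16 days, with 4 mice in each of 5 groups. The treatments were glucagon, T3 (triiodothyronine, the active thyroid hormone), both hormones as separate agents (the combination), a molecule with both hormones built into it (the hybrid), and control. The hybrid libraries carry the code Cp and were taken as the hybrid by elimination. Every group, control included, was on the western diet, so no group shows the liver of a lean, chow-fed mouse. The labels give no dose, strain, age or vehicle, so differences between hybrid and combination are differences at doses that are not known. The question behind the groups is how liver mRNA answers to each hormone, to both, and to both joined in 1 molecule.

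In this pathway serine dehydratase turns serine into pyruvate, and the glycine cleavage system breaks glycine down in mitochondria and passes a carbon unit to folate. Methionine is activated to S-adenosylmethionine, the methyl donor of the cell, and the homocysteine left after methyl transfer is either methylated back to methionine or joined to serine and carried on to cysteine. Glucagon signals fasting to hepatocytes through cyclic AMP and is known to raise amino acid breakdown, while T3 acts through nuclear receptors that bind DNA next to the genes they regulate.

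Library totals ran from 6091917 to 23195658 counts, and the T3 libraries were the shallowest, with 6091917 to 7996156. The labels place replicates 1 to 4 of the glucagon, combination, hybrid and control groups in lanes 1 to 4 and all T3 libraries in lane 5, so lane and treatment cannot be told apart in any comparison with the T3 group. The spread between mice was widest in control, with a biological coefficient of variation of 43.1%, against 18.9% to 25.9% in the treated groups. Hepatocyte markers (10 of 10 listed, none at 0 in any library) summed to between 123071 and 230271 CPM, and Alb alone had 74937 to 182315. Median hepatocyte sums were 195559.5 CPM for glucagon, 151819.9 for T3, 162361 for the combination and 147897 for the hybrid, against 201007 for control. The lowest control liver had 151486 CPM. Marker sums are CPM by plain library size. Skeletal muscle genes (20 of 20 listed) summed to 3356 CPM in glucagon library 3, 400.2 CPM in combination library 4, 809.9 CPM in hybrid library 4 and 1135 CPM in control library 2, where group medians ran from 26.8 to 51.3 CPM. Periportal hepatocyte markers (10 of 10 listed) summed at the median to 8059.6 CPM for glucagon, 6037 for T3, 5806 for the combination and 6841 for the hybrid, against 5322 for control. Most of this sum came from Cyp2f2 (1038 to 4333 CPM), Pck1 (786 to 5663) and Arg1 (669 to 1831). Ass1, though listed, had only 0.0865 to 1.55 CPM and added almost nothing to it. The periportal list also holds Sdsl and Agxt2l1, which are among the 72 further pathway genes. Pericentral markers (10 of 10) summed at the median to 8722 CPM for glucagon, 7913 for T3, 5446 for the combination and 4057 for the hybrid, against 15957 for control, where control library 2 had 3987. Cyp2e1 made up most of the pericentral sum, at 1831 to 19461 CPM over the libraries, while the next highest marker, Oat, reached at most 1014. Macrophage markers (14 of 15 listed) ran from 457 to 559.9 CPM over the glucagon livers, 1717 to 2289.7 over T3, 1339 to 1503 over the combination and 1472 to 1936 over the hybrid, against 625 to 1549 over control. The part of these markers in the results was not tested, and in bulk liver fewer cells of a type and less RNA per cell cannot be told apart.

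Below, levels are CPM (each gene's share of the library's counts, scaled with TMM factors), and a gene is called higher or lower where edgeR's quasi-likelihood test gave a Benjamini-Hochberg adjusted p under 0.05 over all 12907 genes. Changes are on the log2 scale with their standard error, and SDs are over 4 mice. CPM is not divided by gene length, so levels are compared between groups and not between genes.

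Glucagon alone raised Cth, Sds and Mat1a, by 2.62-fold, 2.09-fold and 1.84-fold, and lowered Bhmt 2.71-fold. These 4 calls among the 10 genes stand beside 21.2% of all genes called in that comparison. In 6 of the 10 genes no glucagon liver overlapped a control liver, beside 16.6% of all genes. T3 alone raised Shmt1 and lowered Cth and Cbs, which is 3 of 10 beside 18.0% of all genes, and 1 of 10 (Cth) had no overlap, beside 15.0%. The combination raised Gldc and Mat1a, 2 of 10 beside 20.1% of all genes, and 3 of 10 had no overlap with control, beside 16.6%. The hybrid raised Sds, Gldc and Mat1a and lowered Gcsh and Gnmt, 5 of 10 beside 24.4% of all genes, and 3 of 10 had no overlap, beside 17.7%. The median log2 change of the 10 genes was 0.32 for glucagon, -0.13 for T3, 0.30 for the combination and 0.18 for the hybrid, each against control. Over all genes tested these medians were -0.09, -0.05, -0.07 and -0.05. The 4 comparisons share the 4 control livers. Pemt was called in none of the comparisons run.

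**Figure D1:**
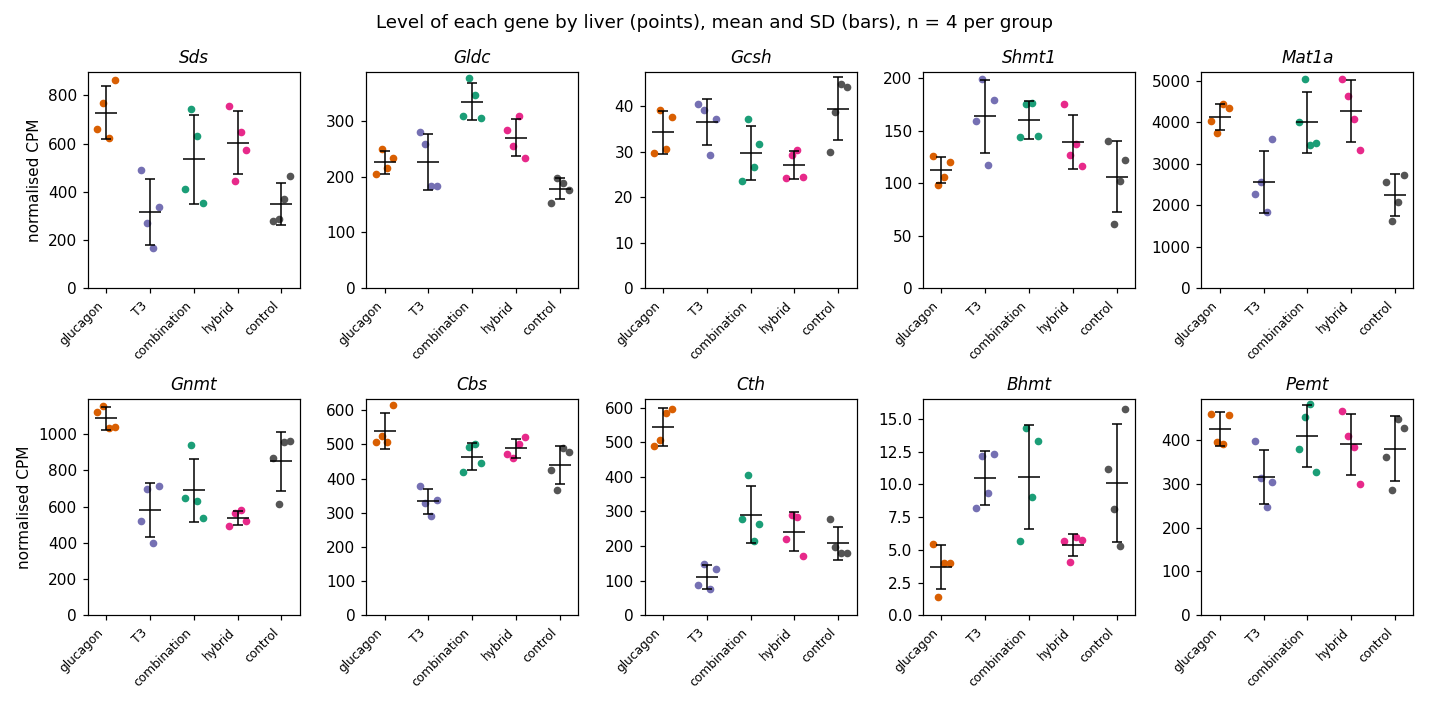
Normalised CPM (y axis) of the 10 genes in each liver (points) of the glucagon, T3, combination, hybrid and control groups (x axis), with the group mean and SD (bars, n = 4). Cth is highest in the glucagon livers (490 to 597 CPM) and lowest in the T3 livers (76 to 148 CPM), and Mat1a is above every control liver in the glucagon, combination and hybrid livers.

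Serine is consumed by Sds, serine dehydratase, which yields pyruvate for gluconeogenesis. Sds stood at 659.6, 770.0, 622 and 863 CPM in the glucagon livers, against 279, 285, 369 and 464 CPM in the control livers. Every glucagon liver was above every control liver, and the change was 1.06 ± 0.29 (adjusted p = 0.012, edgeR). The hybrid livers had 755, 443, 647 and 573 CPM, which overlapped the control livers, and the change was 0.79 ± 0.29 (adjusted p = 0.049, edgeR). With replicate number as a block over 20 libraries the hybrid change of Sds was 0.79 with an adjusted p of 0.0743, and with the lane as block over 16 libraries it was 0.81 with an adjusted p of 0.0451, still called. The call also ended without control library 1, 2 or 3 or hybrid library 1, 3 or 4, taken out in turn (adjusted p 0.0652 to 0.131, edgeR). With the hybrid and control livers alone in the fit the change was 0.81 with an adjusted p of 0.0688 (edgeR). In the combination livers Sds had 412, 742, 631 and 352 CPM, and the change against control of 0.61 ± 0.29 was not called (adjusted p = 0.134, edgeR). The T3 livers had 491, 269, 165 and 335 CPM, a spread that spans the control livers on both sides (-0.15 ± 0.28, adjusted p = 0.75, edgeR). Sds lies at chr5:120476526-120483932 on the plus strand (GRCm38). Of the 50-base windows of its longest transcript, 28.9% also occur in transcripts of Plbd2 and Gm15690 on the opposite strand, and since the strand setting of the counting is not given, reads from these genes cannot be told apart there.

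Shmt1, the cytosolic serine hydroxymethyltransferase, moves a carbon unit from serine to folate and leaves glycine. It had 159, 199, 117 and 179 CPM in the T3 livers, against 139.7, 60.8, 102 and 122 CPM in the control livers. T3 library 3 lay within the control range and the other T3 livers lay above it. The change was 0.62 ± 0.21 (adjusted p = 0.045, edgeR), and it was not called without control library 2 or 3 or T3 library 1, 2 or 4, taken out in turn (adjusted p 0.0706 to 0.133, edgeR). With the T3 and control livers alone in the fit it was 0.63 with an adjusted p of 0.199 (edgeR). In the combination livers Shmt1 stood at 144, 175, 176 and 145 CPM, all above the highest control liver. That change of 0.59 ± 0.21 missed the threshold (adjusted p = 0.0518, edgeR), and with the lane as replicate block in 16 libraries it was 0.64 with an adjusted p of 0.0428, while with the block over 20 libraries it was 0.63 with an adjusted p of 0.0504. It was also called by DESeq2 (0.59, adjusted p = 0.0345) and without control library 1 (0.75, adjusted p = 0.0205, edgeR). The hybrid livers had 175, 127, 137 and 116 CPM (0.39 ± 0.21, adjusted p = 0.192, edgeR), and the glucagon livers had 126, 98.6, 106 and 119.9 CPM (0.09 ± 0.21, adjusted p = 0.806, edgeR). Both sets overlapped the control livers. Of the windows of the Shmt1 transcript, 4.81% occur in Smcr8 on the opposite strand.

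Glycine is cleaved by a complex of 4 proteins, of which Gldc encodes the decarboxylating P-protein and Gcsh the H-protein that carries the reaction's intermediate. Gldc stood at 309, 377, 347 and 306 CPM in the combination livers and at 284, 255, 309 and 233 CPM in the hybrid livers, against 153, 197, 188 and 177 CPM in the control livers. No combination or hybrid liver reached down to the control range. The change was 0.91 ± 0.16 in the combination (adjusted p = 0.000387, edgeR) and 0.60 ± 0.16 in the hybrid (adjusted p = 0.0084, edgeR). With the hybrid and control livers alone in the fit, the hybrid change of Gldc was 0.61 with an adjusted p of 0.071. Glucagon alone and T3 alone each gave 0.34 ± 0.16 for Gldc, with adjusted p of 0.127 and 0.135 (edgeR). The glucagon livers had 204, 250.5, 216 and 234 CPM, all above the control livers, while the T3 livers had 279.8, 258, 183 and 184 CPM and overlapped them.

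Gcsh had 24.3, 29.3, 30.3 and 24.4 CPM in the hybrid livers, against 29.9, 38.7, 44.9 and 44.3 CPM in the control livers. Only the highest hybrid liver reached into the control range, and the change was -0.54 ± 0.17 (adjusted p = 0.023, edgeR). The call ended without control library 4, hybrid library 1 or hybrid library 4, taken out in turn (adjusted p 0.0603 to 0.0758, edgeR). It also ended with the hybrid and control livers alone in the fit (-0.53, adjusted p = 0.121, edgeR). Gcsh averaged 34.2 ± 4.85 CPM with glucagon, 36.5 ± 5.00 with T3 and 29.7 ± 5.93 with the combination, against 39.5 ± 6.96 in control (SD, n = 4). None of these 3 comparisons was called, and the smallest adjusted p among them was 0.0916 for the combination (edgeR). The combination passed the threshold without control library 1 (-0.52, adjusted p = 0.0287) or combination library 2 (-0.53, adjusted p = 0.0452, edgeR). The 2 other genes of the complex were each called in 1 treatment. Dld, the lipoamide dehydrogenase, was lower with T3 (-0.90 ± 0.26, adjusted p = 0.0235, edgeR), with overlap. It was -0.55 without control library 1 (adjusted p = 0.126), and the call also ended without T3 library 1, 3 or 4, taken out in turn (adjusted p 0.051 to 0.0795, edgeR). Amt, the aminomethyltransferase, was lower with the hybrid without overlap (-0.63 ± 0.18, adjusted p = 0.0125, edgeR), and was not called without hybrid library 2 or 4 (adjusted p = 0.0575 and 0.0581).

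Methionine enters the cycle through Mat1a, the methionine adenosyltransferase of adult hepatocytes, which makes S-adenosylmethionine. Mat1a stood at 4019, 3738, 4435 and 4339 CPM in the glucagon livers, at 3999.9, 5043, 3457 and 3492 CPM in the combination livers and at 5034, 4638, 4067 and 3321 CPM in the hybrid livers. The control livers had 2555, 1624, 2071 and 2739 CPM, below all 12 of these livers. The changes were 0.88 ± 0.21 for glucagon (adjusted p = 0.00586), 0.83 ± 0.21 for the combination (adjusted p = 0.00965) and 0.92 ± 0.21 for the hybrid (adjusted p = 0.00367, all edgeR). With only the combination and control livers in the fit, the combination change of Mat1a was 0.83 with an adjusted p of 0.0759. The T3 livers had 2267, 2549, 1837 and 3596 CPM and overlapped the control livers (0.19 ± 0.21, adjusted p = 0.571, edgeR). Its widely expressed relative Mat2a averaged 67.0 ± 10.9 CPM in the hybrid livers and 41.5 ± 6.44 CPM in the control livers (SD, n = 4), a change of 0.69 (adjusted p = 0.00788, edgeR), and was not called in the 3 other treatments.

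S-adenosylmethionine is consumed by Gnmt, which methylates glycine to sarcosine and is known as a sink for surplus methyl groups, and by Pemt, which methylates phosphatidylethanolamine to phosphatidylcholine. Gnmt had 491, 562, 579 and 523 CPM in the hybrid livers, against 869.9, 615, 956 and 959.6 CPM in the control livers. Every hybrid liver was below every control liver, and the change was -0.66 ± 0.20 (adjusted p = 0.0202, edgeR). This call ended without control library 4, hybrid library 1 or hybrid library 4, taken out in turn (adjusted p 0.0537 to 0.0567, edgeR). A fit of the hybrid and control livers alone gave -0.64 with an adjusted p of 0.0848 (edgeR). The T3 livers had 518, 695, 397 and 713 CPM, a change of -0.55 ± 0.20 that missed the threshold (adjusted p = 0.0592, edgeR) and passed it without control library 2 (-0.67, adjusted p = 0.0212) or T3 library 4 (-0.66, adjusted p = 0.0498, edgeR). DESeq2 called it as well (-0.55, adjusted p = 0.03). The combination livers had 649, 942, 633 and 538 CPM (-0.30 ± 0.20, adjusted p = 0.304, edgeR). The glucagon livers had 1124, 1155, 1031 and 1038 CPM, all above the control livers, with a change of 0.35 ± 0.20 that was not called (adjusted p = 0.214, edgeR).

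Pemt ranged from 389.6 to 458 CPM with glucagon, 247 to 398 with T3, 326 to 481 with the combination and 300.1 to 466 with the hybrid, against 285 to 448 CPM in control. The groups overlapped, and its changes against control lay between -0.27 ± 0.18 for T3 and 0.16 ± 0.18 for glucagon. The 95% intervals of those changes reached from -0.65 for T3 up to 0.54 for glucagon, so smaller changes than these cannot be told from none at this depth and spread.

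Homocysteine is drawn off to cysteine in 2 steps, first by Cbs, which joins it to serine, and then by Cth, which releases cysteine. Cth had the widest span of group means among the 10 genes, 2.34 on the log2 scale. It stood at 489.6, 506, 584 and 597 CPM in the glucagon livers and at 86.8, 148, 76 and 135 CPM in the T3 livers, against 277, 197, 179 and 179 CPM in the control livers. The glucagon livers all lay above the control livers and the T3 livers all lay below them. The changes were 1.39 ± 0.24 for glucagon (adjusted p = 0.000314, edgeR) and -0.90 ± 0.24 for T3 (adjusted p = 0.0136, edgeR). The T3 call ended without control library 1, T3 library 1 or T3 library 3, taken out in turn (adjusted p 0.0504 to 0.0543, edgeR). It also ended with the T3 and control livers alone in the fit (-0.89, adjusted p = 0.0865, edgeR). The glucagon call held under all 15 alternatives run. In the combination livers Cth had 279, 406, 215 and 264 CPM (0.49 ± 0.23, adjusted p = 0.15, edgeR), and in the hybrid livers 220.3, 291, 283 and 171 CPM (0.22 ± 0.23, adjusted p = 0.545, edgeR), both overlapping the control livers.

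The group means of Cbs spanned 0.69 on the log2 scale. Cbs had 379, 328, 291 and 336 CPM in the T3 livers, against 425, 366, 488 and 478 CPM in the control livers, with 1 T3 liver inside the control range. The change was -0.40 ± 0.13 (adjusted p = 0.0434, edgeR). It was -0.39 with an adjusted p of 0.0622 with the replicate block, and the call ended without control library 1, 3 or 4 or T3 library 2, 3 or 4, taken out in turn (adjusted p 0.0532 to 0.129, edgeR). A fit of the T3 and control livers alone gave -0.39 with an adjusted p of 0.271 (edgeR). The glucagon livers had 506, 525, 507 and 616 CPM, all above the control livers, with a change of 0.29 ± 0.13 that edgeR did not call (adjusted p = 0.123) and DESeq2 did (0.31, adjusted p = 0.0457). Group means were 464 ± 38.9 CPM in combination and 489 ± 27.7 in hybrid, against 439 ± 56.5 in control (SD, n = 4), and neither comparison was called.

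**Figure D2:**
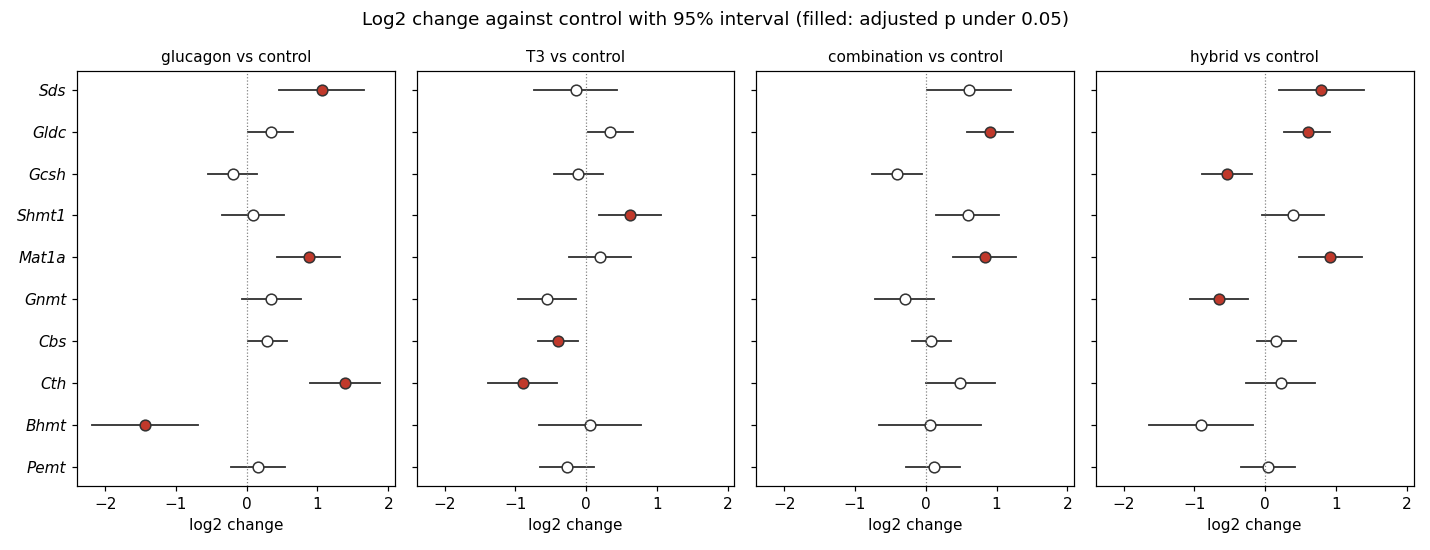
Log2 change (x axis) of each gene (y axis) in glucagon, T3, combination and hybrid livers against control livers, with its 95% interval (lines) from edgeR's fit; filled points have an adjusted p under 0.05. Mat1a is filled in 3 panels, at 0.88, 0.83 and 0.92, and Cth lies on opposite sides of 0 in the glucagon (1.39) and T3 (-0.90) panels.

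Bhmt returns homocysteine to methionine with betaine as the methyl donor. It had few counts, 22 to 209 per library, at 5.43, 1.42, 4.02 and 4.03 CPM in the glucagon livers, against 11.2, 8.11, 5.29 and 15.8 CPM in the control livers. The highest glucagon liver was just above the lowest control liver, and the change was -1.44 ± 0.36 (adjusted p = 0.0071, edgeR). In a fit of the glucagon and control livers alone it was -1.41 with an adjusted p of 0.0722 (edgeR). The hybrid livers had 5.71, 4.11, 5.95 and 5.79 CPM, a change of -0.91 ± 0.35 that edgeR did not call (adjusted p = 0.0652) and DESeq2 did (-0.92, adjusted p = 0.0406). Without control library 3 it was -1.12 (adjusted p = 0.0217, edgeR). The T3 livers had 8.22, 12.2, 9.32 and 12.3 CPM and the combination livers 5.68, 14.3, 9.04 and 13.3 CPM, and both overlapped the control livers (0.05 ± 0.35 and 0.06 ± 0.34, adjusted p = 0.935 and 0.924, edgeR). The level of Bhmt is uncertain: 61.5% of the 50-base windows of its longest transcript also occur in transcripts of Gm5096, Bhmt-ps1 or Gm15622, none of which is among the counted symbols, and the labels do not say how reads with several matches were treated. Bhmt2, a relative that methylates homocysteine with S-methylmethionine, averaged 85.6 ± 14.7 CPM with glucagon, 78.7 ± 11.6 with T3, 87.9 ± 10.1 with the combination and 75.2 ± 12.7 with the hybrid, against 80.2 ± 27.2 in control (SD, n = 4), and was called in none of the 4.

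Start regions of 7 of the 10 genes were found in RefSeq's table for GRCm38.p6, each running from 250 bases before to 50 bases after a start. They were read for the nuclear receptor core AGGTCA, its direct repeat with 4 bases between (DR4), the cyclic AMP response element TGACGTCA and its core TGACG, on both strands, where the full element also holds the core. The regions of Bhmt and Gnmt are shown because both genes changed and both hold AGGTCA, which reads TGACCT on the other strand; capitals mark the matches.

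Bhmt, chr13:93637709-93638008, minus strand: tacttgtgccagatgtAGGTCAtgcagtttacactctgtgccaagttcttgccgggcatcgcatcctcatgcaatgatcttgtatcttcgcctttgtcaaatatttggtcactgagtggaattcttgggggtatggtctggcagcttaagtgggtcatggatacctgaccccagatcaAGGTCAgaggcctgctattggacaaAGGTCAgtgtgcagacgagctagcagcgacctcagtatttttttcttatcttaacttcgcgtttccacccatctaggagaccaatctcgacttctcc

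Gnmt, chr17:46729116-46729415, minus strand: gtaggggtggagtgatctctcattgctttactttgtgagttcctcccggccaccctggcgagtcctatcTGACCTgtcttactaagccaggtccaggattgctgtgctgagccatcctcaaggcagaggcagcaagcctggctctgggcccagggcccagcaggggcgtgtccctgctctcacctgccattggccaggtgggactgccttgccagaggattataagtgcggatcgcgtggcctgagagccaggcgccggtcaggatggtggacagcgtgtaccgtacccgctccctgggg

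The Bhmt region held AGGTCA 3 times, at 234, 72 and 47 bases before the start, and the Gnmt region held it once, 181 bases before the start. Of 32851 start regions in the table, 16.3% hold at least 1 AGGTCA and 0.183% hold 3 or more. Neither region held DR4 (0.0152% of all regions do), the full cyclic AMP element (1.79%) or its core (20.8%). Among the other 5 genes with a region, Shmt1 held the core TGACG once and Gldc, Gcsh, Cbs and Pemt held none of these letters. A match is a description of the letters and not of binding.

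The combination was also set against each single hormone. The comparison with glucagon lies within lanes 1 to 4. In the comparison with T3, and in the interaction below, lane and treatment cannot be told apart. Against glucagon alone, the combination raised Bhmt 2.82-fold (adjusted p = 0.00478, edgeR) and Gldc (0.56 ± 0.16, adjusted p = 0.0121), and lowered Cth (-0.90 ± 0.24, adjusted p = 0.00857) and Gnmt (-0.65 ± 0.20, adjusted p = 0.0216). These 4 of 10 stand beside 22.5% of all genes called. For these 4 genes, and for Shmt1 and Cbs, the combination livers did not overlap the glucagon livers, 6 of 10 beside 33.2% of all genes. The Gnmt call ended without glucagon library 2 or combination library 1, 3 or 4, taken out in turn (adjusted p 0.0517 to 0.0772, edgeR). Against T3 alone, the combination raised only Cth among the 10 genes (1.39 ± 0.24, adjusted p = 0.00275, edgeR), where 1.39% of all genes (179) were called. With 1 library left out in turn that count was 83 to 135. There 3 of 10 genes had no overlap, beside 12.2% of all genes. Gldc (0.57 ± 0.16, adjusted p = 0.0825) and Cbs (0.48 ± 0.13, adjusted p = 0.0885) missed the threshold in edgeR with no overlap between the groups, and DESeq2 called both (adjusted p = 0.0147 and 0.00553).

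Whether the combination equals both single effects added together was tested as an interaction (combination minus glucagon minus T3 plus control, on the log2 scale), and none of the 10 genes was called, where 3.73% of all genes (482) were. With 1 library left out in turn that count was 343 to 821, the highest without control library 3. Cth gave 0.00 ± 0.34, with a 95% interval of -0.71 to 0.70 on the log2 scale, and ran from -0.22 to 0.15 with 1 library left out in turn. Bhmt gave 1.44 ± 0.50, the 1 gene of the 10 with an unadjusted p under 0.05 (adjusted p = 0.128, edgeR), and was called only without control library 3 (1.64, adjusted p = 0.0471). The other 8 genes lay between -0.30 for Sds and 0.23 for Gldc, and DESeq2 likewise called none of the 10.

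The hybrid and the combination were not separated by any of the 10 genes. edgeR and DESeq2 both called 0 of 10 as changed, where edgeR called 0.0310% of all genes. None of the 10 lacked overlap between these groups, beside 7.31% of all genes. The 1 gene with an unadjusted p under 0.05 was Bhmt, at 5.39 ± 0.861 CPM in the hybrid livers and 10.6 ± 3.97 CPM in the combination livers (SD). That difference was -0.97 (95% interval -1.71 to -0.23, adjusted p = 0.651, edgeR). For Gnmt the difference was -0.36 (95% interval -0.77 to 0.06) and for Gldc -0.31 (-0.63 to 0.02). The other 7 genes lay between -0.27 and 0.18, and for Sds the interval ran from -0.42 to 0.77. Each interval therefore leaves room for a difference as large as its own limits, down to -1.71 for Bhmt. A missed threshold does not show that the treatments act alike.

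Against the single hormones, the hybrid lowered Cth (-1.17 ± 0.24, adjusted p = 0.00111, edgeR) and Gnmt (-1.01 ± 0.20, adjusted p = 0.000913) relative to glucagon, 2 of 10 beside 25.2% of all genes. In these 2 of 10 genes every hybrid liver lay below every glucagon liver, beside 33.0% of all genes with no overlap. Relative to T3 the hybrid raised Cth (1.12 ± 0.24, adjusted p = 0.00778, edgeR), Cbs (0.55 ± 0.13, adjusted p = 0.0168) and Mat1a (0.74 ± 0.21, adjusted p = 0.0441), 3 of 10 beside 6.36% of all genes (821, and 406 to 708 with 1 library left out in turn). The hybrid and T3 livers did not overlap for Cth, Cbs and Bhmt, 3 of 10 beside 18.4% of all genes, and did for Mat1a. Sds was 0.94 ± 0.29 in hybrid against T3 and missed the threshold (adjusted p = 0.0549, edgeR). It was called by DESeq2 (0.93, adjusted p = 0.0182), with the hybrid and T3 livers alone in the fit (0.93, adjusted p = 0.046) and without T3 library 1 (1.24, adjusted p = 0.0216, edgeR). The Mat1a change was 0.75 with an adjusted p of 0.0557 with the replicate block, and the call ended without T3 library 1, 2 or 3 or hybrid library 1, 2 or 3, taken out in turn (adjusted p 0.0811 to 0.129, edgeR).

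**Figure D3:**
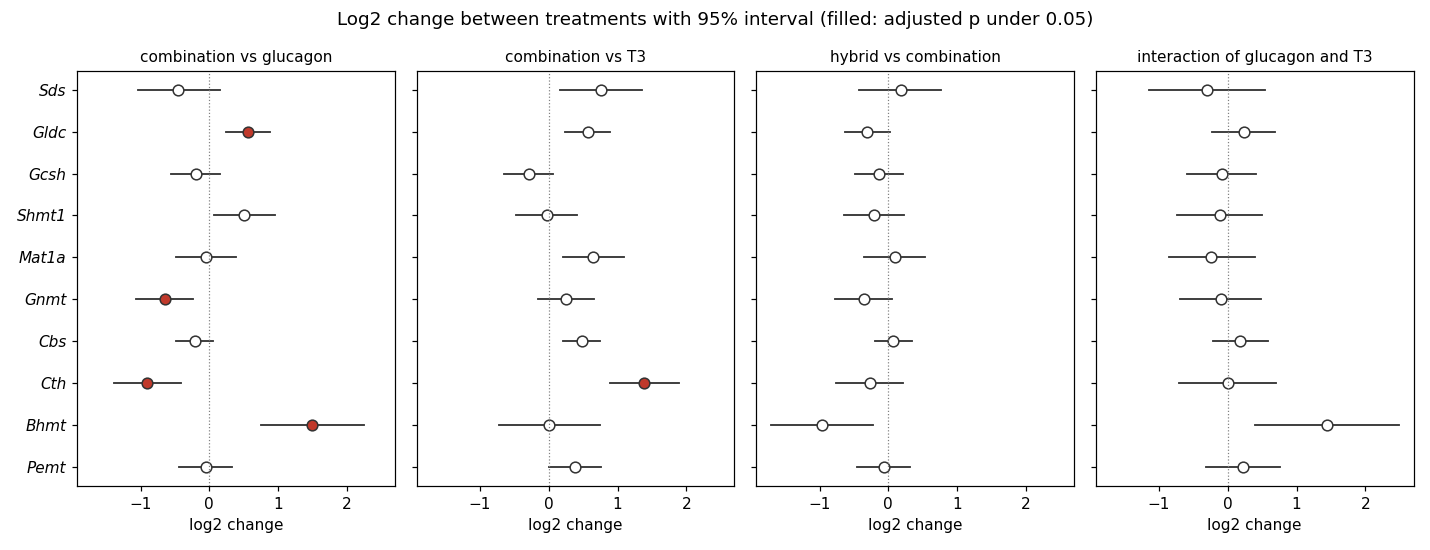
Log2 change (x axis) of each gene (y axis) for combination against glucagon, combination against T3, hybrid against combination, and the interaction of glucagon and T3, with 95% intervals (lines); filled points have an adjusted p under 0.05. Filled points are Gldc, Gnmt, Cth and Bhmt in the first panel and Cth in the next, and neither of the last 2 panels holds one.

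Ordered by group mean, neighbouring groups overlapped for 8 of the 10 genes all along the order. For Gnmt the glucagon livers (mean 1087 CPM) stood clear above the next group, control (850.1 CPM). For Cth the glucagon livers (544 CPM) stood clear above the combination livers (291 CPM), and the T3 livers (111 CPM) stood clear below the control livers (208 CPM), which were next above them. The order of Cth from high to low was glucagon, combination, hybrid, control and T3, and that of Gnmt was glucagon, control, combination, T3 and hybrid.

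Around these enzymes, 72 further genes of the pathway were tested. With glucagon 7 rose and 5 fell, with T3 3 rose and 24 fell, with the combination 8 rose and 21 fell, and with the hybrid 10 rose and 25 fell, each against control. Over all genes tested, 9.23% rose and 11.9% fell with glucagon, 7.31% and 10.6% with T3, 9.23% and 10.9% with the combination, and 11.2% and 13.2% with the hybrid. The median log2 change of the 72 genes was 0.00 for glucagon, -0.39 for T3, -0.24 for the combination and -0.34 for the hybrid. Without control library 2 and glucagon library 3, which had the highest muscle sums, the counts were 9 and 2 with glucagon, 7 and 30 with T3, 11 and 23 with the combination, and 12 and 33 with the hybrid.

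**Figure D4:**
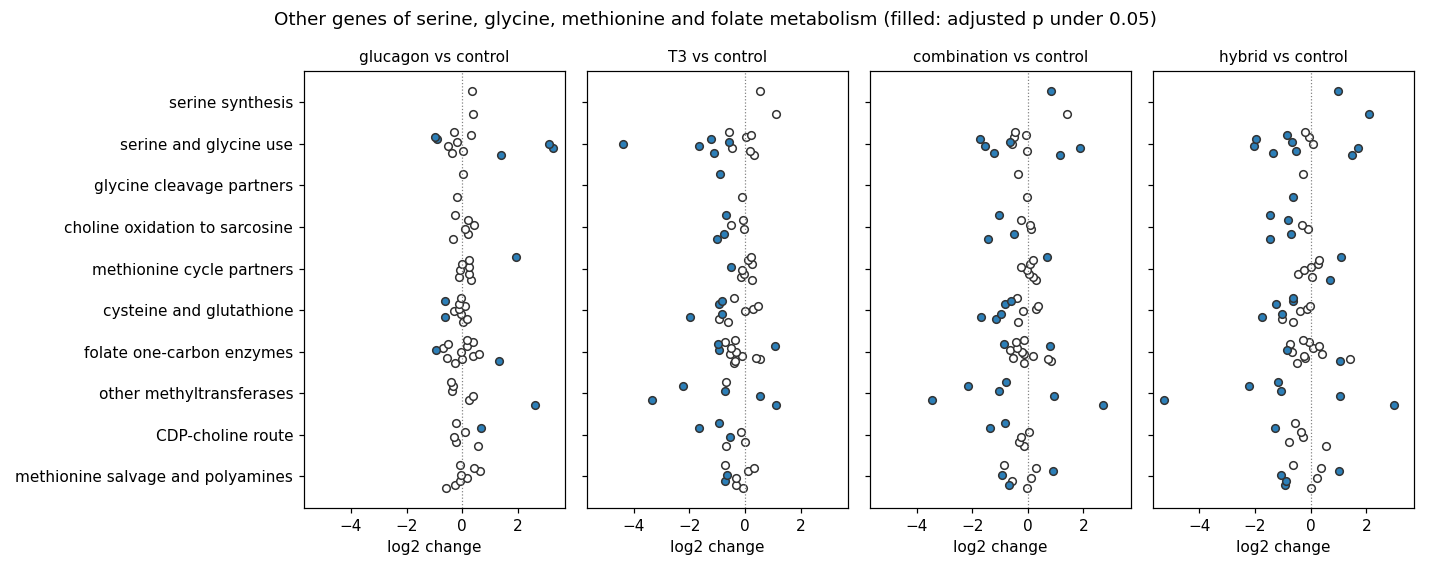
Log2 change (x axis) of 72 further pathway genes, in 10 lists (y axis), in glucagon, T3, combination and hybrid livers against control livers; filled points have an adjusted p under 0.05. Filled points left of 0 number 5 with glucagon, 24 with T3, 21 with the combination and 25 with the hybrid.

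Among 11 genes of serine and glycine use, 3 rose and 2 fell with glucagon, 5 fell with T3, 2 rose and 4 fell with the combination, and 2 rose and 6 fell with the hybrid. In that order, 45.5%, 45.5%, 54.5% and 72.7% of the list were called, beside 21.2%, 18.0%, 20.1% and 24.4% of all genes. Agxt, which transaminates glyoxylate to glycine and in rodents also uses serine, stood at 4512, 3488, 3411 and 3129 CPM in the glucagon livers, against 371, 408, 434 and 290.0 CPM in the control livers. It rose 9.67-fold (3.27 ± 0.31, adjusted p = 1.91e-07, edgeR). The combination livers had 1736, 1888, 759 and 1103 CPM (1.87 ± 0.29, adjusted p = 0.000139) and the hybrid livers 845, 1058, 1528 and 1433 CPM (1.69 ± 0.29, adjusted p = 0.000267, edgeR), all above the control livers. The T3 livers had 234, 343, 161 and 356 CPM. Agxt2l1, a phospholyase of phosphoethanolamine, had 3.19, 3.41, 1.89 and 0.799 CPM in the T3 livers, against 84.8, 42.9, 48.4 and 21.7 CPM in the control livers (-4.39 ± 0.45, adjusted p = 3.21e-06, edgeR). It had 372 to 507 CPM in the glucagon livers, 19.5 to 58.9 in the combination livers and 38.8 to 74.3 in the hybrid livers. The combination and hybrid livers overlapped the control livers, and every glucagon liver lay above them. In the combination Agxt2l1 was 3.82 ± 0.45 higher than with T3 alone (adjusted p = 8.03e-05) and -3.69 ± 0.40 against glucagon alone (adjusted p = 1.77e-06, edgeR). The serine synthesis enzyme Psat1 had 5.76, 12.1, 10.6 and 6.53 CPM in the hybrid livers, against 4.42, 1.16, 2.44 and 2.62 CPM in the glucagon livers (1.71 ± 0.53, adjusted p = 0.0222, edgeR), with no overlap. It was 1.64 with an adjusted p of 0.0548 with the lane as replicate block over 16 libraries and 1.61 with an adjusted p of 0.0354 with the block over 20, and the call ended without glucagon library 2, 3 or 4 or hybrid library 2 or 3, taken out in turn (adjusted p 0.051 to 0.0732, edgeR).

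The list of choline oxidation to sarcosine, which feeds Bhmt with betaine, holds 6 genes. With glucagon 0 of these 6 were called, and 3 fell with T3, 3 with the combination and 4 with the hybrid. In that order, 21.2%, 18.0%, 20.1% and 24.4% of all genes were called. The list's share was below that of all genes with glucagon and above it in the other treatments. Chdh, which starts the oxidation of choline to betaine, had 134, 104, 127 and 117 CPM in the hybrid livers and 127, 126, 110.1 and 138 CPM in the combination livers, against 319, 295, 420.1 and 305 CPM in the control livers. The highest combination or hybrid liver lay below the lowest control liver. The changes were -1.48 ± 0.15 for the hybrid (adjusted p = 1.17e-06) and -1.42 ± 0.15 for the combination (adjusted p = 1.96e-06, edgeR). Chpt1, which ends the CDP-choline route to phosphatidylcholine beside Pemt, was -2.02 ± 0.24 in the combination and -1.93 ± 0.24 in the hybrid, each against glucagon (adjusted p = 4.91e-06 and 9.18e-06, edgeR).

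Of 8 partners of the methionine cycle, 1 rose with glucagon, 1 fell with T3, 1 rose with the combination and 2 rose with the hybrid. That is 12.5%, 12.5%, 12.5% and 25.0% called in that order, beside 21.2%, 18.0%, 20.1% and 24.4% of all genes. Among 6 other methyltransferases, which also consume S-adenosylmethionine, 1 rose and 0 fell with glucagon, 2 rose and 3 fell with T3, and 2 rose and 4 fell with both the combination and the hybrid. Beside the same shares of all genes, these are 16.7%, 83.3%, 100% and 100% called. Nnmt, which methylates nicotinamide, had 540.5, 538, 393 and 346 CPM in the hybrid livers, 342, 451, 408 and 280.2 CPM in the combination livers and 359, 351, 322 and 389.6 CPM in the glucagon livers, against 86.7, 59.1, 23.8 and 59.8 CPM in the control livers. The lowest liver of these 3 treatments, at 280.2 CPM, lay above the highest control liver, and the changes were 2.98 ± 0.32, 2.69 ± 0.32 and 2.63 ± 0.32 (adjusted p = 2.37e-06, 7.78e-06 and 6.1e-06, edgeR). With T3 alone Nnmt changed by 1.12 ± 0.31 (adjusted p = 0.0165, edgeR), and without T3 library 4 by 0.81 (adjusted p = 0.0781). Inmt, which methylates indole amines, had 40.7, 28.4, 49.8 and 49.5 CPM in the hybrid livers, against 2423, 319, 1703 and 2004 CPM in the control livers (-5.26 ± 0.56, adjusted p = 2.02e-06, edgeR). Control library 2, which also had the lowest pericentral sum of the control livers, stood apart from the other control livers but above every hybrid liver. Hnmt, the histamine methyltransferase, had 6.02 to 7.08 CPM in T3 and 5.63 to 8.22 in combination, against 12.5 to 48.2 CPM in control (-2.22 ± 0.29 and -2.16 ± 0.29, adjusted p = 5.28e-05 and 2.83e-05, edgeR).

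The list of cysteine and glutathione, downstream of Cth, holds 10 genes. Of these, 0 rose and 2 fell with glucagon, 4 fell with T3, 5 with the combination and 5 with the hybrid. Beside them, 21.2%, 18.0%, 20.1% and 24.4% of all genes were called, in the same order. The share of this list was just below that of all genes with glucagon and above it in the other treatments. Gclc, the catalytic subunit of the first enzyme of glutathione synthesis, had 209, 168, 218 and 132 CPM in the T3 livers, 169.7, 206, 281 and 221 CPM in the combination livers and 233, 215, 223 and 166 CPM in the hybrid livers. The control livers had 1035, 569, 722 and 522 CPM, above all 12 of these. The changes were -1.97 ± 0.22, -1.70 ± 0.21 and -1.76 ± 0.21 (adjusted p = 5.66e-06, 1.51e-05 and 8.03e-06, edgeR). Among 13 folate enzymes, 1 rose and 1 fell in each of glucagon, combination and hybrid against control, and 1 rose and 2 fell with T3. These are 15.4% called with glucagon, combination and hybrid each, beside 21.2%, 20.1% and 24.4% of all genes. With T3 it is 23.1%, beside 18.0%. Fpgs, which retains folates in the cell by adding glutamates, had 453, 360.3, 277 and 382 CPM in the T3 livers, against 158, 115, 214 and 209 CPM in the control livers (1.08 ± 0.21, adjusted p = 0.00146, edgeR), with no overlap.

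**Figure D5:**
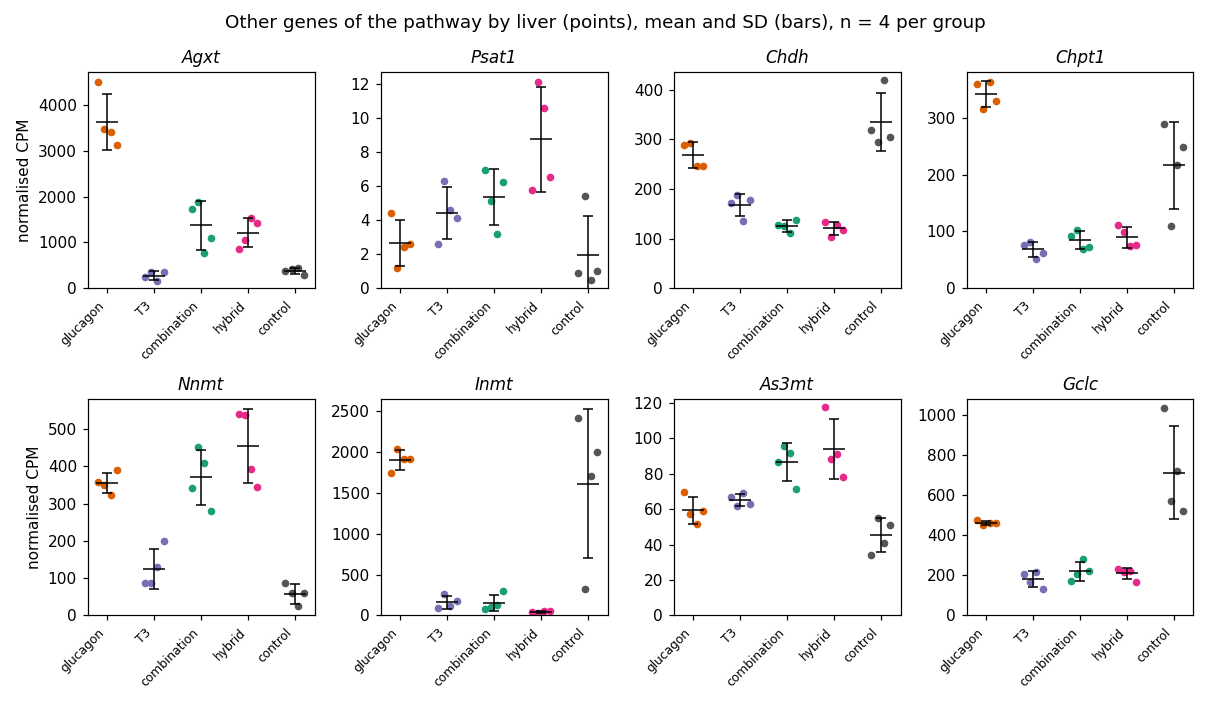
Normalised CPM (y axis) of 8 further pathway genes in each liver (points) of the glucagon, T3, combination, hybrid and control groups (x axis), with group mean and SD (bars, n = 4, drawn down to 0 at most). Agxt is highest in the glucagon livers (3129 to 4512 CPM), and Inmt, Gclc and Chpt1 are low in the T3, combination and hybrid livers, where Inmt ranges from 28.4 to 296 CPM, against 319 to 2423 CPM in control.

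The other genes with the smallest p in their comparison were As3mt, Gatm, Ethe1, Shmt2 and Gamt. As3mt, which methylates arsenic with S-adenosylmethionine, had 86.6, 95.8, 92.0 and 71.5 CPM in the combination livers and 118, 88.2, 91.3 and 78.1 CPM in the hybrid livers, against 34.0, 55.2, 41.0 and 50.8 CPM in the control livers. All of these livers lay above control (0.93 ± 0.16 and 1.05 ± 0.16, adjusted p = 0.000377 and 9.17e-05, edgeR). As3mt was also higher with T3 than in control (0.53 ± 0.16, adjusted p = 0.0287), a call that ended without control library 1 or 3 or T3 library 1, 3 or 4, taken out in turn (adjusted p 0.0508 to 0.088, edgeR). Gatm, which joins glycine and arginine on the way to creatine, had 8.77, 7.37, 7.61 and 7.45 CPM in the glucagon livers, against 10.7, 24.8, 7.55 and 17.5 CPM in the control livers. This change of -0.96 ± 0.27 (adjusted p = 0.0155, edgeR) was -0.60 without control library 2 (adjusted p = 0.0866). Ethe1, which oxidises persulfides in mitochondria, had 40.8 to 50.4 CPM in the glucagon livers, against 50.9 to 77.3 CPM in the control livers (-0.63 ± 0.17, adjusted p = 0.0129, edgeR). The Ethe1 call ended without control library 2 and glucagon library 3 (-0.57, adjusted p = 0.0663) and with the glucagon and control livers alone in the fit (-0.61, adjusted p = 0.0721). Relative to T3, the hybrid lowered Shmt2, the mitochondrial counterpart of Shmt1 (-0.71 ± 0.17, adjusted p = 0.0163), and Gamt, which methylates the product of Gatm to creatine (-1.08 ± 0.28, adjusted p = 0.026, edgeR). The Shmt2 call ended without T3 library 1 or hybrid library 2 (adjusted p = 0.0556 and 0.0663), and the Gamt call without T3 library 1, 2 or 4 or hybrid library 2, 3 or 4, taken out in turn (adjusted p 0.0609 to 0.0828, edgeR).

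For the 4 members whose group means spanned at least 1 on the log2 scale, other genes averaging 20 CPM or more were ranked. The rank was by how closely their log2 CPM followed the member over the 20 libraries, as a root mean square difference after centring. Members and genes with clone names (Gm, Rik, BC or AK) were left out of the ranking. Nearest to Sds were Agt, Etnk2 and Sdc1 (0.331, 0.332 and 0.348), where the SD of Sds itself was 0.619. Nearest to Gnmt were Cul4a, Aldh7a1 and Zadh2 (0.189, 0.197 and 0.208, SD 0.446), of which Aldh7a1 oxidises betaine aldehyde to betaine. Nearest to Cth were Fam134b, Heca and Ccng2 (0.340, 0.351 and 0.382, SD 0.812). Nearest to Bhmt were Hfe2, Spns2 and Nr1h4 (0.409, 0.470 and 0.506, SD 0.786). These are descriptions over 5284 candidate genes, and the libraries share treatment, lane and depth.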

How the data were processed

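Each library held 1 mouse liver. Per the labels' protocols, extraction used a Qiagen kit and library preparation a Lexogen kit. The deposited values are raw counts per gene symbol. HTSeq and mm10 are named in the submitters' processing notes without a version of HTSeq. Not given in the sources used here are the aligner, the annotation and the strand setting. The fit used edgeR 4.0.16, with limma 3.58.1, under R 4.3.3. filterByExpr (minimum count 10, minimum total 15) kept 12907 of 13319 symbols, TMM factors were applied, and 20 libraries with 5 group means entered a quasi-likelihood fit with 15 residual and 5 prior degrees of freedom. P-values were adjusted by Benjamini-Hochberg over all genes within a comparison, called under 0.05. Standard errors are the log2 change divided by the root of F. The fit was also run on simulated data, drawn with the same spread for each gene in all groups. That run does not cover the wider spread of control. P-values rest on the spread between mice, with 1 estimate per gene shared by all 5 groups. The biological coefficient of variation was 27.8% over all 20 libraries, 43.1% in control and 18.9% to 25.9% in the treated groups. The shared value is therefore below that of control and above that of each treated group. Totals of 6091917 to 23195658 counts limit precision for low genes.

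The number of a library marks its sequencing lane in 16 libraries, per the labels, so numbers pair these libraries. Over 24 same-numbered pairs the correlation of deviations from group means ran from -0.318 to 0.462, with 10 over 0.1. The main design has no block.

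The 10 genes, the lists and the rules were chosen with earlier results of these data known. Per comparison, list genes were named from the 3 called ones of smallest p in each direction; Mat2a, Amt, Dld and Bhmt2 were added as partners of members after values were seen. Alternatives were RLE factors, no filter, DESeq2 1.42.0, a fit on only the groups compared, replicate blocks over 20 and 16 libraries, each library left out in turn, and leaving out control library 2 with glucagon library 3. Positions and transcripts are from GENCODE M21, and start regions from RefSeq. A few genes of the lists enter the counts and are not reported by name here.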

Additional observations from a re-analysis of the deposited data

Results flagged for a closer look

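In 50 groups of 4 livers (the 10 genes in 5 groups each), a library was noted where its gap to the nearest other made up more of the group's range than Dixon's critical value for 4, which chance gives in about 1 of 20 groups. This held in 1 group. Bhmt in hybrid library 2 stood below its group, with a gap of 0.868 of the range, at 4.11 CPM against 5.71 to 5.95 CPM in the other hybrid livers.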

How the results depend on the processing

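Of 24 calls on the 10 genes in 10 comparisons, 13 held under every alternative run. Among these are Cth in glucagon against control, Gldc in combination against control, and Mat1a in glucagon and in hybrid against control. Fitting the compared groups alone gave 0 members called for T3, 1 for the combination (Gldc) and 1 for the hybrid (Mat1a) against control, and 5 for hybrid against T3. DESeq2 gave 3 for combination against T3. With each library left out in turn, the test called 4 to 4 members for glucagon, 1 to 3 for T3, 2 to 4 for the combination and 2 to 5 for the hybrid against control, 3 to 4 for combination and 2 to 2 for hybrid against glucagon, 1 to 1 for combination and 2 to 3 for hybrid against T3, 0 to 0 for hybrid against combination and 0 to 1 for the interaction. The replicate block over 20 libraries ended the calls on Sds (hybrid against control), Cbs (T3 against control) and Mat1a (hybrid against T3). The lane block over 16 libraries, which cannot hold T3, kept Sds, added Shmt1 (combination against control) and ended Psat1 (hybrid against glucagon). Neither block changed another call on a member. The cause of these shifts was not tested.

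No called change reversed. Signs turned only for changes that were not called. With 1 library left out in turn, log2 changes ranged for Shmt1 from -0.10 to 0.26 (glucagon against control), -0.16 to 0.08 (combination against T3) and -0.29 to 0.06 (interaction). They ranged for Sds from -0.45 to 0.07 and for Mat1a from -0.02 to 0.33 (T3 against control), and for Mat1a from -0.19 to 0.01 in combination and -0.04 to 0.15 in hybrid against glucagon. Bhmt ranged from -0.16 to 0.34 in T3 and in combination against control, and from -0.18 to 0.21 in combination against T3. Pemt ranged from -0.06 to 0.16 in hybrid against control, -0.15 to 0.04 in combination against glucagon and -0.17 to 0.05 in hybrid against combination. Gnmt ranged from -0.25 to 0.01 in hybrid against T3 and -0.31 to 0.01 in the interaction, Gcsh from -0.24 to 0.01 and Cth from -0.22 to 0.15 in the interaction. Without control library 2 and glucagon library 3 the turned values were Shmt1 -0.08 (glucagon against control) and 0.04 (interaction), Bhmt -0.05 with T3 and -0.05 with the combination, Cbs -0.01 and Pemt -0.02 with the combination, and Pemt -0.08 with the hybrid.

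Over all genes, fits of the compared groups alone called 976 instead of 2732 for glucagon, 503 instead of 2317 for T3, 918 instead of 2598 for the combination and 1208 instead of 3144 for the hybrid against control, and 523 instead of 179 for combination against T3, 16 instead of 4 for hybrid against combination, and 1562 instead of 821 for hybrid against T3. With 1 library left out in turn, counts ran from 1528 to 3179 for T3 against control, 83 to 135 for combination and 406 to 708 for hybrid against T3, 1 to 5 for hybrid against combination and 343 to 821 for the interaction. DESeq2 called 336 for combination against T3 and 28 for hybrid against combination. Of the 72 pathway genes, fits of the compared groups alone called 5 instead of 12 for glucagon, 9 instead of 27 for T3, 14 instead of 29 for the combination and 21 instead of 35 for the hybrid against control, and 35 instead of 21 for combination against glucagon. Such fits also ended the calls on Nnmt and As3mt with T3 and on Ethe1 and Gatm with glucagon (adjusted p 0.0721 to 0.142, edgeR).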
